A study of Homo sapiens with 18 samples.

Results

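The phagocyte NADPH oxidase was followed through 6 of its genes, CYBB, CYBA, NCF4, RAC1, RAC2 and HVCN1, in human leukaemia and lymphoma cells measured on Affymetrix human exon arrays. The members were chosen by symbol: a probe set counted for a gene when the platform annotation gave it that symbol alone. This gave 83 probe sets, of 287329 on the array: 18 for CYBB, 11 for CYBA, 14 for NCF4, 14 for RAC1, 10 for RAC2 and 16 for HVCN1. Each gene was given the mean log2 value of its probe sets, and 16241 genes with at least 3 probe sets were tested, all 6 members among them. CYBB lies on chromosome X, CYBA on 16, NCF4 and RAC2 on 22, RAC1 on 7 and HVCN1 on 12.

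HL60 is a promyelocytic leukaemia line, THP-1 a monocytic leukaemia line and U937 a line from a histiocytic lymphoma with monocytic features. In each, cells received 30 nM phorbol 12-myristate 13-acetate (PMA), a direct activator of protein kinase C, or its vehicle dimethyl sulfoxide (DMSO), for 3 days. The 18 arrays form 6 groups of 3, namely DMSO and PMA in HL60, THP-1 and U937. All cells are transformed lines, with 1 line per background. The labels number the arrays of a group but do not say that they came from separate cultures, so each p-value reflects the spread among these arrays alone, which may be technical.

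The oxidase makes superoxide from oxygen with electrons taken from NADPH, and is best known for its role in the killing of microbes by neutrophils and macrophages. CYBB (gp91phox, NOX2) carries the electrons across the membrane and is held in a stable heterodimer with CYBA (p22phox). On activation, cytosolic subunits, among them NCF1 and NCF4 (p40phox), join this core together with a Rac GTPase, RAC2 in most blood cells and RAC1 more widely. HVCN1 is the voltage-gated proton channel that carries out the protons left behind by the electron flow. PMA is a classical trigger of the assembled enzyme through protein kinase C, but what was measured here is the RNA of its parts after 3 days.

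RefSeq (GRCh38.p14) gave a window before the transcription start for 2 of the 6 members, CYBB and CYBA. The 250 bases before the start of each are shown because these 2 genes encode the paired membrane subunits but differed in their calls with PMA. In the main fit CYBB was called in THP-1 and U937, and CYBA in no line. Among other settings, CYBB was also called in HL60 with the replicate number as a block within each line. CYBA was called in U937 with quantile normalization, with centred arrays and with a median polish. The CYBB window is chrX:37779809-37780058 on the plus strand and the CYBA window chr16:88651054-88651303 on the minus strand. Both are written 5′ to 3′ toward the start, and capitals mark the matched motifs.
CYBB: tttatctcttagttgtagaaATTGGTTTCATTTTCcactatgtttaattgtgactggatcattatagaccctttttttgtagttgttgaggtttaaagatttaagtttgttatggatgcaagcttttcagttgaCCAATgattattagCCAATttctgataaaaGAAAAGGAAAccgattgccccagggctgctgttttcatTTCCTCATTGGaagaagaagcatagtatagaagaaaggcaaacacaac
CYBA: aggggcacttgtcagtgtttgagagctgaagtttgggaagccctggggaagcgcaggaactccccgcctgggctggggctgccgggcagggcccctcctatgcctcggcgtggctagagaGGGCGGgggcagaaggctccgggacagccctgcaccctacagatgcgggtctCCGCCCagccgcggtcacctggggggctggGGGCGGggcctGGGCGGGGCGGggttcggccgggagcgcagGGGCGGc

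The motifs searched, on both strands, were GAGGAA (the core bound by PU.1), CCAAT (the CCAAT box), TATAAA (the TATA box), TGANTCA (bound by AP-1), GGGCGG (the GC box) and the interferon response element, which repeats GAAA. The CYBB window held 4 CCAAT matches, at 230, 116, 102 and 42 bases before the start, 2 interferon response element matches at 225 and 86, and 1 GAGGAA match on the opposite strand at 48. The GAGGAA match does not overlap the CCAAT match that follows it, and the first CCAAT and the first interferon response element match lie side by side. The CYBA window held 6 GGGCGG matches, at 130, 78, 48, 37, 32 and 7 bases before the start, of which the pair at 37 and 32 share a base. Neither window had TATAAA or TGANTCA. Of 35116 windows of this length, 32% held CCAAT, 3.02% the interferon response element, 23.6% GAGGAA, 42.6% GGGCGG, 10.7% TATAAA and 6.57% TGANTCA. A match describes the letters of the window and is not a measured binding site.

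Array medians ran from 6.18 to 6.95 log2, and arrays of one group correlated at 0.931 to 0.978 over all probe sets. The mean of 10 myeloid marker genes lay between 7.66 and 8.97 in the 6 groups, above the median gene at 6.42. Of these 10, 8 were above the median gene in HL60 with DMSO, 7 in THP-1 and only 5 in U937, against 9 with PMA in each line. The mean of 4 erythroid and megakaryocyte markers lay between 6.27 and 6.65, above the median gene in 4 of the 6 groups. The mean of 7 T and NK cell markers lay between 4.85 and 5.64, with 1 of the 7 above the median gene in each group. The U937 PMA 2 array stood apart: it had 83228 distinct values where each of the other 17 had at least 214471, and the lowest median of all. It was the lowest U937 PMA array for 5 of the 6 members, all but NCF4, so the member effects called in U937 are also given without it. The U937 effects of the listed genes around the oxidase are given only with this array included. Exactly tied values were far more frequent within a line than between lines, and levels set across lines, like effects in U937, depend on the scaling. As deposited, 75.0% of the genes called in U937 were lower with PMA, against 51.7% after quantile normalization of all arrays. The median effect over all genes in U937 moved from -0.07 to 0.12 log2.

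PMA raised CYBB in THP-1 and U937 and RAC2 in all 3 lines, while NCF4 fell in HL60 and HVCN1 rose in THP-1. A gene was called at an adjusted p under 0.05 in limma, with Benjamini-Hochberg adjustment over all genes tested. In HL60, 2 of the 6 members were called, RAC2 higher and NCF4 lower, where 23% of all genes were called, 12.3% higher and 10.7% lower. In THP-1, 3 members were called, all higher, against 22.6% of all genes in either direction, 9.38% higher and 13.2% lower. In U937, 2 members were called, both higher, against 22% in either direction, 5.5% higher and 16.5% lower. Without the THP-1 PMA 1 array, 1 member remained called in THP-1. For the effect averaged over the 3 lines, CYBB, RAC2 and HVCN1 were called, against 39.6% of all genes. RNA was taken from whole cultures, so a smaller share of cells with a transcript and less RNA per cell cannot be told apart.

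**Figure D1:**
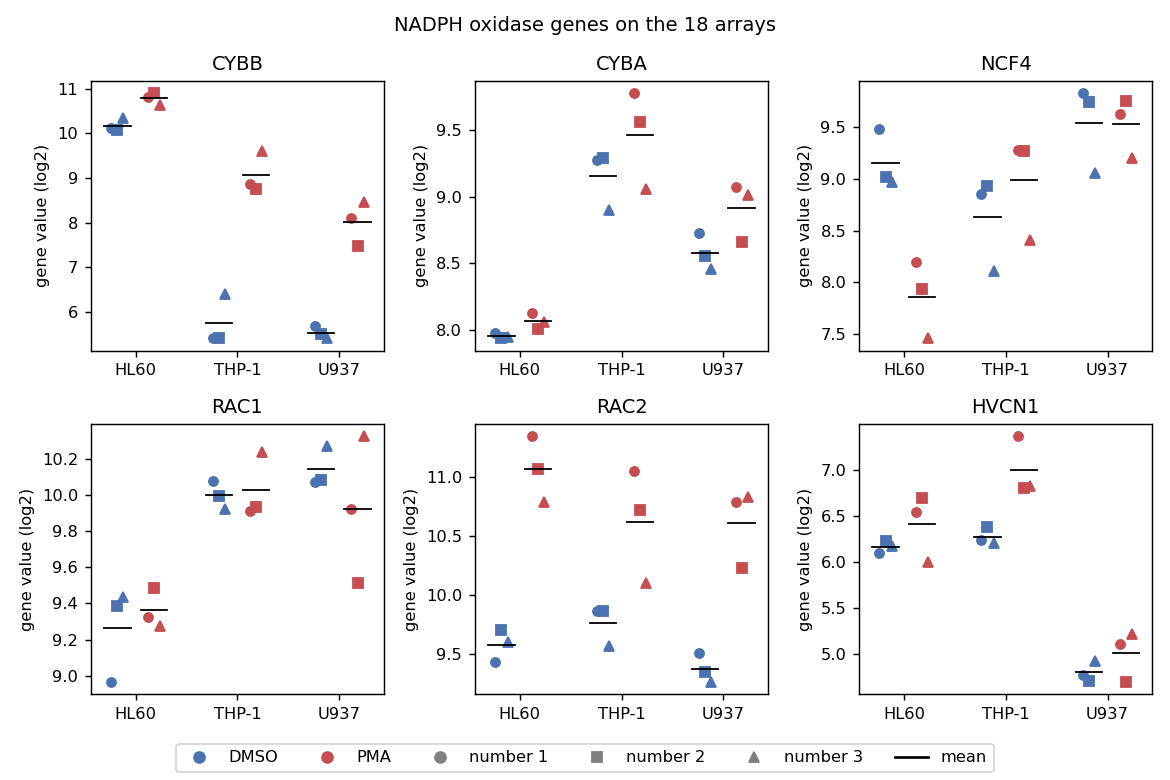
Gene values (log2) of the 6 oxidase genes on the 18 arrays, one panel per gene, with each point 1 array and the x axis the cell line; colour gives the agent, shape the array number and bars the mean of 3 arrays. RAC2 lies higher with PMA in every line, whereas CYBB starts at 10.18 in HL60 with DMSO and at 5.74 and 5.53 in THP-1 and U937.

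The catalytic subunit CYBB had the largest rise of the 6 members in THP-1 and U937. In THP-1 its values were 5.41, 5.41 and 6.39 log2 with DMSO and 8.86, 8.76 and 9.60 with PMA. The lowest PMA array lay far above the highest DMSO array. The change was 3.34 ± 0.28 log2 (SE, 3 arrays a group), with an adjusted p of 1.97e-07 in limma. No detection call was at hand, and the DMSO means of 5.74 in THP-1 and 5.53 in U937 lay below the median gene. With DMSO, 7 epithelial and fibroblast markers spanned 2.90 to 7.04 in THP-1 and 3.03 to 6.96 in U937. The means of these markers were 4.96 and 5.17. Whether CYBB was above background in these groups is not known. Differences from its DMSO levels there are given as measured and without a fold.

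In U937, CYBB values were 5.68, 5.50 and 5.40 with DMSO and 8.10, 7.48 and 8.46 with PMA. The groups did not overlap, and the change was 2.48 ± 0.28 log2 (limma, adjusted p = 6.3e-06). Without U937 PMA 2 it was 2.75 (adjusted p = 7.88e-06). The THP-1 and U937 effects differed by 0.85 ± 0.40, which was not called (limma, adjusted p = 0.355, interval from 0.01 to 1.70).

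HL60 already had CYBB at 10.12, 10.07 and 10.34 with DMSO, and at 10.82, 10.90 and 10.65 with PMA. Every PMA array was above every DMSO array. The difference of 0.61 ± 0.28 log2 (1.53-fold) was not called in the fit on all arrays (limma, adjusted p = 0.148). With the replicate number as a block within each line the adjusted p was 0.0215, with a block shared across lines 0.0697, and in a fit of the HL60 arrays alone 0.0138.

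The CYBB effect in HL60 was smaller than in the other lines by a test of the difference itself. The HL60 effect minus the THP-1 effect was -2.73 ± 0.40 log2 (limma, adjusted p = 0.000268), and minus the U937 effect -1.87 ± 0.40 (limma, adjusted p = 0.00616). Such differences of effects were called for 2 members in HL60 minus THP-1, CYBB and NCF4, where 7.78% of all genes were called. In HL60 minus U937 the call was for 1 member, CYBB, against 7.73%, and in THP-1 minus U937 for 0 of 6, against 4.77%. In the last comparison CYBB alone had an unadjusted p under 0.05, at 0.0479 in limma.

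With DMSO, CYBB stood 4.44 ± 0.28 log2 higher in HL60 than in THP-1 (limma, adjusted p = 4.65e-09) and 4.65 ± 0.28 higher than in U937 (adjusted p = 3.66e-09), both measured against levels not known to be above background. THP-1 and U937 differed by 0.21 ± 0.28 (limma, adjusted p = 0.585, interval from -0.39 to 0.81). Ordered by mean, CYBB ran from U937 with DMSO (5.53 ± 0.14, SD, n = 3) through THP-1 with DMSO (5.74 ± 0.57), U937 with PMA (8.01 ± 0.50), THP-1 with PMA (9.07 ± 0.46) and HL60 with DMSO (10.18 ± 0.14) to HL60 with PMA (10.79 ± 0.13). Only the 2 lowest neighbours in this order had overlapping arrays.

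The rise was shared by nearly all CYBB probe sets, although the gene itself was not called in HL60 in the main fit. Of the 18 CYBB probe sets, 17 were higher with PMA in each line. Arrays did not overlap for 14 of them in HL60, 17 in THP-1 and 17 in U937. Over all probe sets with 1 symbol, 18.5%, 15.1% and 6.56% were higher without overlap in those lines. The probe set 3973876 showed the widest span: in THP-1 it read 3.45, 2.62 and 2.30 with DMSO and 6.79, 7.20 and 8.08 with PMA. The exception in all 3 lines was 3973840, whose mean over the 18 arrays was 4.77, below the 30th percentile of all probe sets at 5.17.

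CYBA, the partner that stabilises CYBB, was higher with PMA in the mean of every line but was called in none in the main fit. In HL60 its values were 7.98, 7.94 and 7.95 with DMSO and 8.13, 8.01 and 8.06 with PMA. In THP-1 they were 9.27, 9.29 and 8.90, then 9.78, 9.56 and 9.06. In U937 they were 8.73, 8.56 and 8.46, then 9.07, 8.66 and 9.01. The groups overlapped in THP-1 and U937 and stood just apart in HL60.

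The CYBA differences were 0.11 ± 0.19, 0.31 ± 0.19 and 0.33 ± 0.19 log2 in HL60, THP-1 and U937 (limma, adjusted p = 0.725, 0.278 and 0.263). Their intervals reached at most 0.51, 0.70 and 0.73. In U937 the call depended on scaling and summary: with quantile normalization CYBA rose by 0.57 (adjusted p = 0.00884), with centred arrays by 0.57 (adjusted p = 0.0128) and with a median polish by 0.51 (adjusted p = 0.0439). The average over the lines was 0.25 ± 0.11 (adjusted p = 0.0756), and 0.0211 with the replicate block.

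With DMSO, CYBA was lower in HL60 (7.95 ± 0.02, SD, n = 3) than in THP-1 (9.16 ± 0.22), by 1.20 ± 0.19 log2 (SE, limma, adjusted p = 0.000142). U937 lay between, at 8.58 ± 0.14. HL60 thus had the highest CYBB and the lowest CYBA of the 3 lines. The difference between HL60 and U937 was -0.63 ± 0.19 (adjusted p = 0.0208), and was -0.29 with quantile normalization (adjusted p = 0.195). It was also not called without HL60 DMSO 2, HL60 DMSO 3 or U937 DMSO 1 (adjusted p = 0.064, 0.06 and 0.1). The difference between THP-1 and U937, 0.57 ± 0.19 (adjusted p = 0.0308), was not called without THP-1 DMSO 1 or 2 or U937 DMSO 2 or 3 (adjusted p from 0.0678 to 0.107).

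The CYBA probe sets did not move as one. In HL60, 8 of the 11 were higher with PMA, while the neighbours 3704274, 3704275 and 3704276 were lower without overlap of arrays. For example, 3704274 read 6.29, 6.16 and 6.59 with DMSO and 5.41, 5.78 and 5.54 with PMA. Over all probe sets with 1 symbol, 16.2% were lower without overlap in HL60, 18.2% in THP-1 and 17.1% in U937. In THP-1, 3704275 was lower too, by a mean of -0.64 log2 and without overlap. In U937 the means of the 3 differed by -0.24 to -0.064, with overlapping arrays. The most variable CYBA probe set was 3704271, which in THP-1 read 6.32 and 6.48 on the arrays numbered 3 (DMSO, PMA) and 8.37 to 9.76 on the other 4. Relative to its gene, 3704274 was lower by 0.88 log2 (limma on the splicing index, adjusted p = 0.0416), short of the 1 log2 unit set for a call. The splicing index is the probe-set value minus the gene value.

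**Figure D2:**
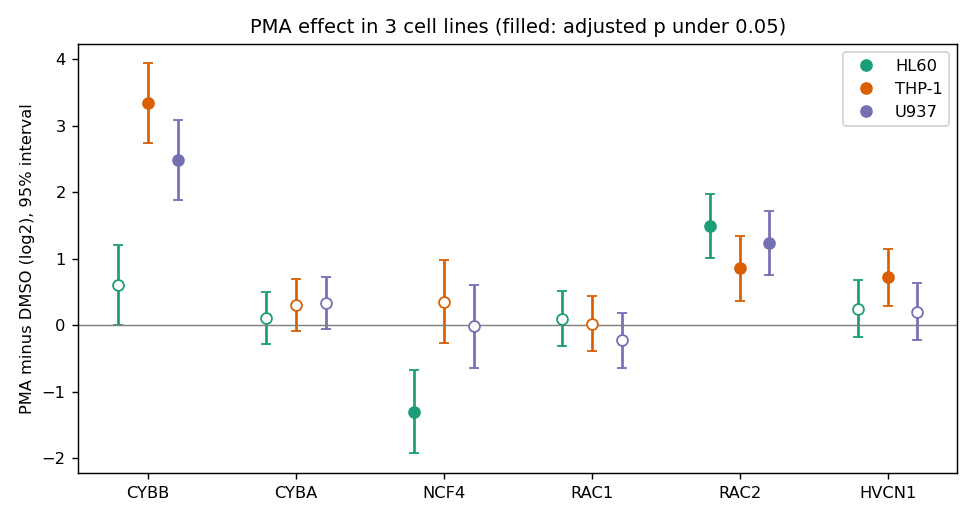
PMA effect (PMA minus DMSO, log2) of each oxidase gene in HL60, THP-1 and U937, with bars for the 95% interval of the limma fit; filled points have an adjusted p under 0.05. CYBB in THP-1 stands highest at 3.34 and NCF4 in HL60 lowest at -1.30, while the RAC1 intervals all include 0.

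NCF4, whose protein p40phox binds phosphatidylinositol 3-phosphate on phagosomes and sustains the oxidase there, fell in HL60. Its values in HL60 were 9.48, 9.02 and 8.97 with DMSO and 8.19, 7.93 and 7.45 with PMA. Every PMA array lay below every DMSO array. The change was -1.30 ± 0.30 log2, to 0.407 of the DMSO level (limma, adjusted p = 0.0031). Leaving out single arrays gave changes from -1.46 to -1.10, each called.

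In THP-1, NCF4 values were 8.86, 8.93 and 8.11 with DMSO and 9.28, 9.27 and 8.41 with PMA. In U937 they were 9.83, 9.74 and 9.06 with DMSO and 9.63, 9.76 and 9.21 with PMA. The array numbered 3 was the lowest of its group in all 6 groups. The differences of 0.36 ± 0.30 in THP-1 (limma, adjusted p = 0.447) and -0.01 ± 0.30 in U937 (adjusted p = 0.993) were not called, and the latter turned to 0.24 with quantile normalization.

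The HL60 effect on NCF4 minus that in THP-1 was -1.65 ± 0.42 log2 (limma, adjusted p = 0.0197). It was not called without HL60 DMSO 1, HL60 PMA 3, THP-1 PMA 1 or THP-1 PMA 2 (adjusted p from 0.0543 to 0.0575). Minus the U937 effect it was -1.29 ± 0.42 (adjusted p = 0.0745). With the replicate block the adjusted p was 0.000606, and with quantile normalization the difference was -1.56 (adjusted p = 0.0304). The average over the lines was -0.32 ± 0.17 (adjusted p = 0.156, and 0.00514 with the block).

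One NCF4 probe set, 3944561, varied far more by array than the others. In HL60 it read 9.30 and 8.52 on the arrays numbered 1 (DMSO, PMA), against 5.60, 4.94, 4.67 and 3.83 on the rest. In THP-1 and U937 the arrays numbered 3 read 6.05 to 7.12 and all others 9.21 or more. Its pooled SD within groups was 2.20, against a median of 0.304 for NCF4 probe sets, and 0.382% of all probe sets were at least as variable. Without it, a choice made after seeing the data, the HL60 change was -1.33 (limma, adjusted p = 0.000197) and HL60 minus U937 was -1.34 (adjusted p = 0.0122).

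The fall in HL60 did not extend to every NCF4 probe set. Of the 14, 9 were lower with PMA without overlap. Among all 261273 probe sets compared in this way, 16.2% were lower without overlap in HL60. Probe set 3944547 read 10.94, 11.61 and 11.51 with DMSO and 9.52, 10.05 and 9.19 with PMA. By contrast, 3944545 read 7.37, 7.56 and 7.69 with DMSO and 7.71, 7.89 and 7.92 with PMA. The groups of 3944558 overlapped, at 6.05, 6.05 and 6.40 with DMSO and 5.60, 5.84 and 6.93 with PMA, and its usage was not called (limma on the splicing index, adjusted p = 0.256).

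Set against its gene, 3944545 was higher by 1.60 ± 0.34 log2 in HL60 (limma on the splicing index, adjusted p = 0.00962). It was 1 of 75 member probe sets tested that was called for usage in HL60, where 3.61% of all probe sets were called. In THP-1 and U937, 0 of 75 were called, against 1.84% and 1.27%. Even so, 1 in each had an adjusted p under 0.05 with a difference under 1 log2. It belonged to HVCN1 in THP-1 (limma, adjusted p = 0.0348) and to CYBB in U937 (limma, adjusted p = 0.00932). An unadjusted p under 0.05 was found for 7 in THP-1 and 8 in U937. limma's diffSplice called 0 member probe sets. The call in HL60 was lost without HL60 DMSO 1 or HL60 PMA 3, and 2 were called without HL60 DMSO 3 or HL60 PMA 2. In THP-1, 1 was called without THP-1 DMSO 1 or PMA 3. In U937, 1 was called without THP-1 DMSO 3 or U937 DMSO 3.

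**Figure D3:**
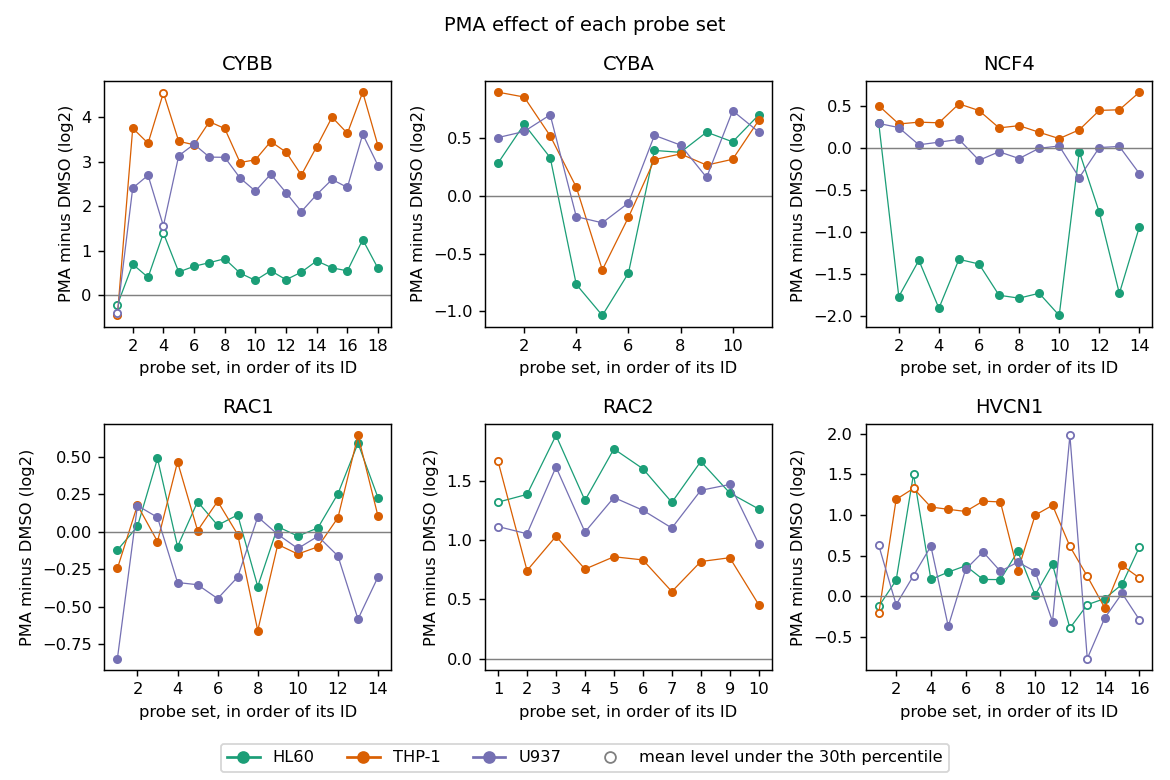
PMA effect (PMA minus DMSO, log2) of every probe set of the 6 genes in the order of its identifier, one panel per gene, coloured by cell line; open circles have a mean level under the 30th percentile. All 10 RAC2 probe sets lie above 0 in every line, 17 of 18 CYBB probe sets do, and NCF4 in HL60 lies below 0 for all but the first of its 14.

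RAC2, the Rac GTPase of blood cells that switches on the assembled oxidase, rose in all 3 lines. It was the member called in each of them without the replicate block; with the block within each line CYBB was called in each as well. In HL60 its values were 9.43, 9.70 and 9.61 with DMSO and 11.35, 11.07 and 10.79 with PMA. In THP-1 they were 9.86, 9.87 and 9.57, then 11.05, 10.72 and 10.10. In U937 they were 9.51, 9.35 and 9.27, then 10.79, 10.23 and 10.83. In no line did a PMA array reach down to a DMSO array.

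The RAC2 change was 1.49 ± 0.23 log2 in HL60 (2.81-fold, limma adjusted p = 8.11e-05), 0.86 ± 0.23 in THP-1 (1.81-fold, adjusted p = 0.0107) and 1.24 ± 0.23 in U937 (2.36-fold, adjusted p = 0.000672). Without U937 PMA 2 the U937 change was 1.43 (adjusted p = 0.000321). Without THP-1 PMA 1 the THP-1 change was 0.64 with an adjusted p of 0.0784. Differences of the effect between lines, from -0.38 to 0.63 log2, were not called. Averaged over the lines RAC2 rose by 1.20 ± 0.13 (adjusted p = 1.02e-06).

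Among all probe sets with 1 symbol, 18.5% in HL60, 15.1% in THP-1 and 6.56% in U937 were higher with PMA without overlap. All 10 RAC2 probe sets were higher with PMA in each line, 9 of them without overlap. The exception, 3960062, read 6.91 on HL60 PMA 1 against 1.17 and 1.27 on the other HL60 PMA arrays, and from 1.27 to 1.58 on the 6 arrays numbered 3. Without this probe set, again a choice made after seeing the data, RAC2 changed by 1.51, 0.77 and 1.26 in HL60, THP-1 and U937, each called in limma (highest adjusted p = 0.0145). With DMSO the lines' RAC2 levels, 9.58 ± 0.14 in HL60, 9.77 ± 0.17 in THP-1 and 9.38 ± 0.12 in U937 (SD, n = 3), were not called different. With quantile normalization THP-1 stood 0.66 above U937 (adjusted p = 0.00889) and HL60 0.57 above it (adjusted p = 0.0263).

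RAC1, the widely expressed Rac GTPase, was not called with PMA in any line. Its values in HL60 were 8.97, 9.38 and 9.43 with DMSO and 9.32, 9.49 and 9.27 with PMA. In THP-1 they were 10.08, 10.00 and 9.92, then 9.91, 9.93 and 10.24. In U937 they were 10.07, 10.08 and 10.28, then 9.93, 9.51 and 10.33. The groups overlapped in every line.

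The RAC1 differences were 0.10 ± 0.20, 0.03 ± 0.20 and -0.22 ± 0.20 log2 (limma, adjusted p = 0.761, 0.942 and 0.561). The intervals ran from -0.63 at the lowest to 0.51 at the highest bound, and the sign in THP-1 and U937 depended on the summary or the scaling. With DMSO, RAC1 was lower in HL60 (9.26 ± 0.26, SD, n = 3) than in U937 (10.14 ± 0.11), by 0.88 ± 0.20 (limma, adjusted p = 0.00285). HL60 minus THP-1 was -0.74 ± 0.20 (adjusted p = 0.0126), and was not called without HL60 DMSO 1 or THP-1 DMSO 1 (adjusted p = 0.0813 and 0.0569).

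Within each array, RAC2 gained on RAC1. The difference RAC2 minus RAC1, whose zero has no meaning because the 2 genes have different probes, was 0.47, 0.32 and 0.17 log2 in HL60 with DMSO and 2.02, 1.59 and 1.52 with PMA. In THP-1 it was -0.22, -0.13 and -0.35, then 1.14, 0.79 and -0.14. In U937 it was -0.56, -0.73 and -1.01, then 0.86, 0.72 and 0.50. Only in THP-1 did the groups overlap, through the PMA array numbered 3.

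The gain was 1.39 in HL60, 0.83 in THP-1 and 1.46 in U937, and 1.23 on average. An exact two-sided permutation test of agent labels within lines (8000 assignments) gave p = 5e-04, with 5e-04 after adjustment over 2 such tests. CYBB minus CYBA gained 0.50, 3.03 and 2.15 in the same order, 1.89 on average (exact permutation p = 0.00025, the smallest it can give, adjusted 5e-04). Leaving out single arrays gave gains of 1.14 to 1.35 for RAC2 minus RAC1 and 1.74 to 2.04 for CYBB minus CYBA. Such a ratio shows unequal change of the 2 genes.

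**Figure D4:**
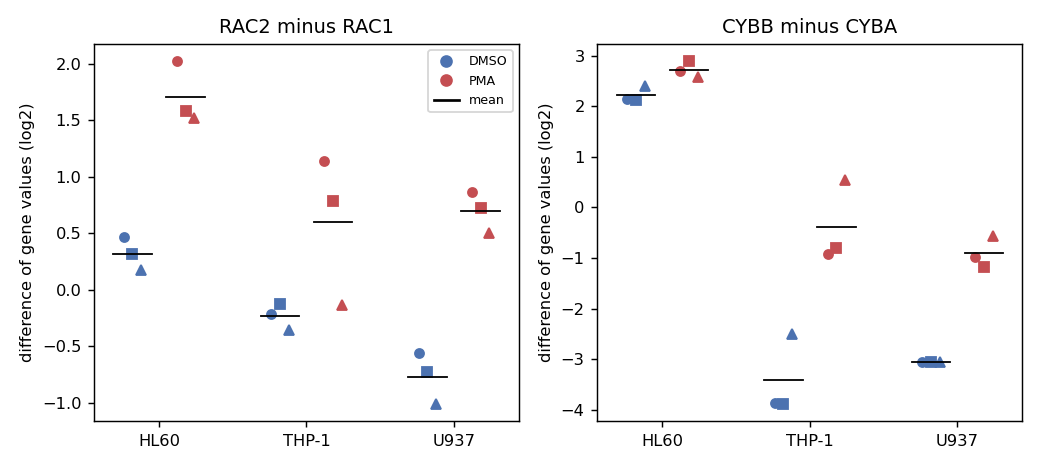
Difference of 2 gene values within each array (log2) for RAC2 minus RAC1 and CYBB minus CYBA, by cell line, with 1 point per array and DMSO and PMA side by side. The mean is higher with PMA in every line for both pairs, by 0.83 to 1.46 for RAC2 minus RAC1 and by 0.50 to 3.03 for CYBB minus CYBA.

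The proton channel gene HVCN1 rose in THP-1. Its values there were 6.23, 6.38 and 6.20 with DMSO and 7.36, 6.80 and 6.82 with PMA. The groups did not overlap, and the change was 0.72 ± 0.20 log2 (limma, adjusted p = 0.0144). The DMSO mean of 6.27 lay below the median gene at 6.42, and whether HVCN1 was above background there is not known. Its change is therefore given without a fold. The change was not called without THP-1 DMSO 1 (0.71, adjusted p = 0.0508) or without THP-1 PMA 1 (0.54, adjusted p = 0.0997).

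In HL60, HVCN1 read 6.09, 6.23 and 6.17 with DMSO and 6.55, 6.70 and 6.002 with PMA. In U937 it read 4.77, 4.71 and 4.92, then 5.10, 4.70 and 5.22. The groups overlapped in both lines. The differences of 0.25 ± 0.20 and 0.20 ± 0.20 were not called (limma, adjusted p = 0.44 and 0.631), and no difference of the effect between lines was called. Averaged over the lines HVCN1 rose by 0.39 ± 0.12 (limma, adjusted p = 0.012).

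With DMSO, HVCN1 was lower in U937 (4.80 ± 0.11, SD, n = 3) than in HL60 (6.16 ± 0.07) and THP-1 (6.27 ± 0.09). HL60 stood 1.36 ± 0.20 above U937 (limma, adjusted p = 8.13e-05) and THP-1 1.47 ± 0.20 above it (adjusted p = 2.88e-05). Whether HVCN1 was above background in U937, with DMSO or PMA, is not known, and both differences are measured against that level. The DMSO means in HL60 and THP-1 also lay below the median gene at 6.42, so it is not known there either. Of the 16 HVCN1 probe sets, 10 were higher with PMA without overlap in THP-1, 1 in HL60 and 3 in U937. Over all probe sets with 1 symbol, 15.1%, 18.5% and 6.56% were so in these lines, which puts HL60 below that share. The 10 in THP-1 follow each other by identifier, from 3471330 to 3471343, and their changes ran up to 1.33 log2. Among them, 3471331 read 5.76, 6.38 and 5.68 with DMSO and 7.59, 7.04 and 7.17 with PMA. The 5 with the highest identifiers overlapped between DMSO and PMA in THP-1. Of these, 3471353, 3471354 and 3471359 had a mean over the 18 arrays below the 30th percentile of all probe sets at 5.17. The mean of 3471331 was below it too. Among the 5, 3471355 read 6.93, 6.87 and 7.02 with DMSO and 6.93, 6.42 and 7.04 with PMA. Relative to its gene it was lower by 0.87 (limma on the splicing index, adjusted p = 0.0348).

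Between lines with DMSO, 3 members were called in HL60 minus THP-1 (CYBB, CYBA, RAC1), where 16.6% of all genes were called. In HL60 minus U937 there were 4 (CYBB, CYBA, RAC1, HVCN1), against 22.9%, and in THP-1 minus U937 there were 3 (CYBA, HVCN1, NCF4), against 26.2%. NCF4 with DMSO was 0.91 ± 0.30 lower in THP-1 than in U937 (limma, adjusted p = 0.0306). With quantile normalization it was -0.63 and not called (adjusted p = 0.165), nor was it called without THP-1 DMSO 3, U937 DMSO 1 or U937 DMSO 2 (adjusted p from 0.0908 to 0.151). Without U937 DMSO 2, 1 member was called between THP-1 and U937.

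For the other members the order of the 6 group means was less sharply stepped. CYBA ran from HL60 over U937 to THP-1, with PMA above DMSO in each line, and neighbours overlapped except where one of them was an HL60 group. In HVCN1 both U937 groups stood below all others, THP-1 with PMA stood above all others, and HL60 and THP-1 with DMSO overlapped with each other and with HL60 with PMA. In RAC2 the 3 DMSO groups overlapped in a chain below the 3 PMA groups, which also overlapped in a chain. In RAC1 the HL60 groups lay below the other 4. In NCF4 every neighbour in the order overlapped, from HL60 with PMA (7.86 ± 0.37, SD, n = 3) through THP-1 with DMSO (8.63 ± 0.45) and with PMA (8.99 ± 0.50) and HL60 with DMSO (9.16 ± 0.28) to U937 with PMA (9.53 ± 0.29) and with DMSO (9.54 ± 0.42).

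For each member, the 3 genes whose values ran most alike over the 18 arrays were taken from all genes tested, as a description. The arrays share lines and treatments, which sets much of any such correlation. For CYBB they were TRIB1 (Pearson r = 0.921), KIF13A (0.894) and JUP (0.889). For CYBA they were APOBEC3G (0.965), RAB13 (0.964) and NUDT14 (0.960), and for NCF4 TESC (0.909), EMP3 (0.900) and TMEM205 (0.889). For RAC1 they were PIAS3 (0.962), SPINDOC (0.944) and XK (0.935), for RAC2 ST6GALNAC2 (0.940), TAPBPL (0.929) and S100A16 (0.927), and for HVCN1 CD81 (0.966), BTBD3 (0.959) and CCDC50 (0.956). No member was among another member's 3.

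The other oxidases and their partners did not pass the test. Of 15 listed genes 13 were measured, among them NOX1, NOX3, NOX4, NOX5, DUOX1 and DUOX2, and 0 were called in any line with limma. At an unadjusted p under 0.05 there were 1, 2 and 0 in HL60, THP-1 and U937. The list's median effect was 0.13, 0.17 and 0.05 log2 in HL60, THP-1 and U937, against 0.13, 0.04 and -0.07 over all genes. RAP1A, the small GTPase that copurifies with the cytochrome, was at 1.26 in HL60 and 1.36 in THP-1 (limma, adjusted p = 0.075 and 0.054), and rose by 0.98 ± 0.28 averaged over the lines (adjusted p = 0.00959). It was named after its values were seen. NCF1, encoding the organiser p47phox, has 1 probe set with its symbol alone and was not tested. It read 4.29 ± 0.39 and 5.12 ± 0.44 (SD, n = 3) in HL60 with DMSO and PMA, 5.17 ± 0.68 and 5.57 ± 0.63 in THP-1, and 5.61 ± 0.41 and 5.30 ± 0.53 in U937. NCF1 has near-identical pseudogenes, so its reading is uncertain.

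Of the regulators and effectors of Rac, 20 of 22 were measured. In HL60 5 rose and 3 fell, in THP-1 3 and 1, and in U937 2 and 3. The shares of all genes called were 12.3%, 9.38% and 5.5% higher and 10.7%, 13.2% and 16.5% lower in these lines. Median effects were 0.12, 0.18 and -0.03, against 0.13, 0.04 and -0.07 over all genes. CYFIP1, a subunit of the WAVE complex that binds active Rac, rose by 2.30 ± 0.23, 1.74 ± 0.23 and 1.03 ± 0.23 log2 in HL60, THP-1 and U937 (limma, adjusted p = 6.98e-07, 2.68e-05 and 0.00349). RACGAP1, which turns Rac off and serves cytokinesis, fell by 2.10 ± 0.22, 1.89 ± 0.22 and 1.63 ± 0.22 (highest adjusted p = 3.62e-05). Exchange factors, which load Rac with GTP, went different ways. TIAM1 rose by 1.40 ± 0.28 and PREX1 fell by 1.32 ± 0.25 in HL60, VAV3 rose by 1.64 ± 0.31 in THP-1, and VAV2 fell by 0.98 ± 0.27 in U937. The Rac inactivator ARHGAP25 rose by 0.91 ± 0.21 in U937.

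Of the kinases and the phospholipase that feed oxidase activation, 14 of 16 were measured. In HL60 4 rose and 3 fell, in THP-1 0 and 3, and in U937 3 and 4. Of all genes, 12.3%, 9.38% and 5.5% rose and 10.7%, 13.2% and 16.5% fell in these lines. Median effects were 0.24, -0.03 and -0.45, against 0.13, 0.04 and -0.07 over all genes. PRKCB, a protein kinase C isoform and thus a direct PMA target, rose by 0.87 ± 0.23 in HL60 and 0.82 ± 0.23 in U937 but fell by 1.09 ± 0.23 in THP-1 (limma, highest adjusted p = 0.0143). PIK3CG, a leukocyte phosphoinositide 3-kinase, rose by 1.81 ± 0.29 in HL60 and fell by 1.32 ± 0.29 in U937. Its regulatory subunit PIK3R5 rose by 1.41 ± 0.29 in U937, and PIK3CD fell by 0.87 ± 0.27 in THP-1. PLA2G4A, the cytosolic phospholipase that releases arachidonic acid, fell by 2.07 ± 0.37 in HL60 and by 1.92 ± 0.37 in U937. The kinase SYK fell by 1.33 ± 0.21 in HL60.

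All 13 listed transcription factors known from work on the CYBB and NCF promoters were measured. In HL60 1 rose and 1 fell, in THP-1 1 and 3, and in U937 0 and 7. Of all genes, 12.3%, 9.38% and 5.5% rose and 10.7%, 13.2% and 16.5% fell in these lines. Median effects were 0.00, 0.05 and -0.76, against 0.13, 0.04 and -0.07 over all genes. IRF8, an interferon regulatory factor of monocyte development, fell by 2.84 ± 0.43 in HL60 and 2.54 ± 0.43 in THP-1 (limma, adjusted p = 6.51e-05 and 0.000262). IRF2 rose by 1.37 ± 0.25 and 1.50 ± 0.25 in those lines. The ETS factor ELF1 fell by 1.19 ± 0.25 in THP-1. In U937 the homeobox factor MEIS1 fell by 2.05 ± 0.20 and the chromatin organiser SATB1 by 1.48 ± 0.43 (limma, adjusted p = 9.89e-07 and 0.0192).

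The oxidase draws its NADPH largely from the pentose phosphate pathway, of whose list 11 of 12 genes were measured. In HL60 3 rose and 3 fell, and in THP-1 and U937 0 rose and 3 fell. Of all genes, 12.3%, 9.38% and 5.5% rose and 10.7%, 13.2% and 16.5% fell in HL60, THP-1 and U937. Median effects were -0.06, -0.23 and -0.10, against 0.13, 0.04 and -0.07 over all genes. In HL60 the NADPH-forming enzymes H6PD and PGD rose by 1.36 ± 0.33 and 0.81 ± 0.26 (limma, adjusted p = 0.0052 and 0.0273). RPIA, an enzyme of the pathway's non-oxidative arm, fell by 1.45 ± 0.27, 1.13 ± 0.27 and 1.38 ± 0.27 in HL60, THP-1 and U937. RPE, of the same arm, fell by 1.35 ± 0.24 in THP-1 and by 1.53 ± 0.24 in U937, and TKT fell by 1.30 ± 0.24 in HL60.

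Genes of superoxide and peroxide handling made up the last list, with 21 of 22 measured. Besides enzymes that use or remove these, it held genes such as HMOX1, GCLC, GCLM and NQO1, which act on other substrates. In HL60 4 rose and 3 fell, in THP-1 3 and 3, and in U937 0 and 1. Of all genes, 12.3%, 9.38% and 5.5% rose and 10.7%, 13.2% and 16.5% fell in these lines. Median effects were -0.11, -0.08 and -0.05, against 0.13, 0.04 and -0.07 over all genes. Heme oxygenase HMOX1 rose by 2.56 ± 0.55 in HL60 and 4.36 ± 0.55 in THP-1 (limma, adjusted p = 0.00193 and 1.49e-05). GCLC, the catalytic subunit for glutathione synthesis, rose by 2.99 ± 0.39 in HL60, while its modifier GCLM fell by 1.25 ± 0.37 in THP-1. The quinone reductase NQO1 rose by 1.46 ± 0.49 in THP-1. In HL60 the granule peroxidases MPO and EPX, which use peroxide derived from superoxide, fell, with changes of -5.88 ± 0.19 and -3.57 ± 0.43. Catalase (CAT) fell by 1.76 ± 0.41 in THP-1 and 1.71 ± 0.41 in U937.

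**Figure D5:**
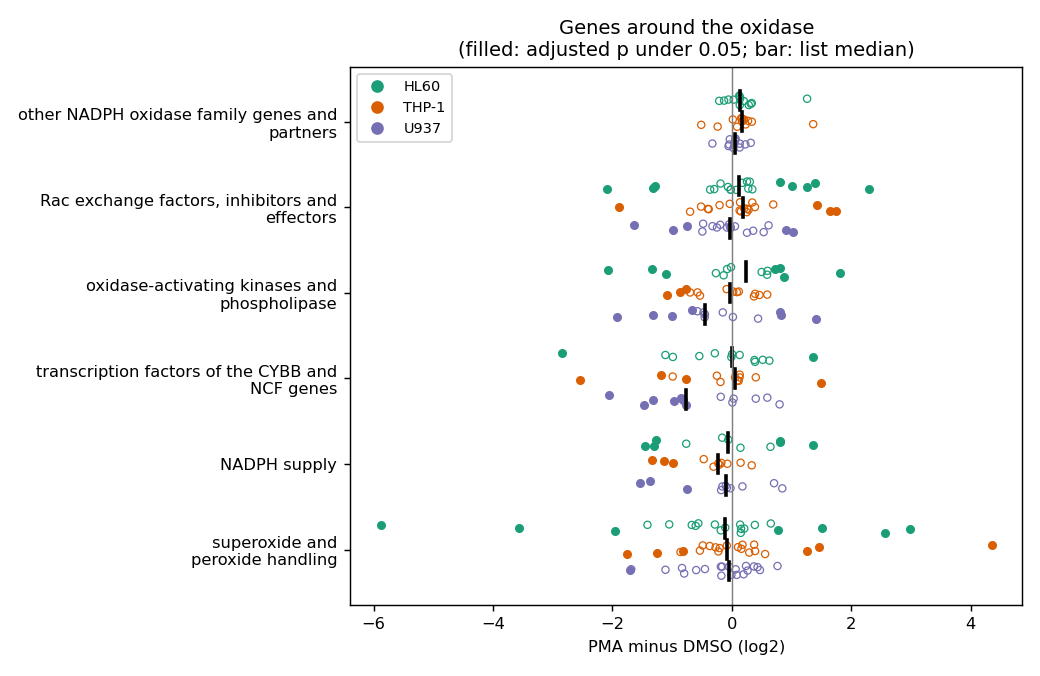
PMA effects (PMA minus DMSO, log2) of the genes of the 6 lists around the oxidase, one row per list, coloured by cell line; filled points have an adjusted p under 0.05 and bars mark the list median. The row of other oxidases and their partners has no filled point, and MPO in HL60 lies farthest to the left at -5.88.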

How the data were processed

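Total RNA of 18 samples (3 per line and agent) was hybridised as biotin-labelled cDNA to Affymetrix exon arrays. The deposited values are log2 levels per probe set, made by the authors with Affymetrix Expression Console per the submitters' processing notes. For its version, background correction and normalization: not given in the sources used here. Exactly equal values were shared by 39 to 116 probe sets between arrays of one line and by 7 or fewer between lines, while the second DMSO and PMA arrays of U937 shared 5 or fewer with any array. Array number limits the precision.

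Of 287329 probe sets, 261273 had 1 gene symbol in the platform annotation, 9155 several and 16901 none. Of 16941 symbols, 14546 were current in RefSeq, 2300 were updated and 95 were kept. Positions and exon numbers of probe sets were not used here.

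Gene values were fitted with limma 3.58.1 in R 4.3.3 (with the data.table package, version 1.17.8) as 6 group means over 18 arrays, with 12 residual and 17.06 total degrees of freedom. P-values are two-sided and adjusted by Benjamini-Hochberg over all genes or probe sets. Usage was tested on the splicing index of 175163 probe sets above 5.17 log2 (30th percentile) in 11974 genes with at least 5 of them, with calls at 1 log2 unit or more and an adjusted p under 0.05. Intervals are 95%, unadjusted. The scripts were tested on simulated data. Figures were drawn with matplotlib 3.10.9.

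The members, lists and tests were chosen with earlier results of these data known. The text names the members, up to 2 called increases and 2 called decreases per list and line, and the 3 most alike genes per member. Same-numbered DMSO and PMA samples deviated together in all 9 pairs (correlations of 0.285 to 0.790). Some differently numbered samples did so too, such as U937 DMSO 2 with PMA 1 (0.329) and THP-1 DMSO 1 with PMA 2 (0.437). Whether the numbers mark paired cultures is therefore not known, and the blocked fit is given where it changes a call. Alternatives covered scaling, summary, filters, the block, arrays left out and diffSplice.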

Additional observations from a re-analysis of the deposited data

Results flagged for a closer look

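In all, 3 differences of the PMA effect between lines passed the test of the difference itself (limma, adjusted over all genes). CYBB changed less in HL60 than in THP-1, by -2.73 log2 (adjusted p = 0.000268), and less than in U937, by -1.87 (adjusted p = 0.00616). All 18 fits that left out 1 array kept both calls. CYBB started from 10.18 in HL60 with DMSO and from 5.74 and 5.53 in THP-1 and U937. NCF4 fell in HL60 and not in THP-1, with a difference of -1.65 (adjusted p = 0.0197), called in 14 of the 18 fits that left out 1 array. The part of separate normalization of the lines in these differences was not tested.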

How the results depend on the processing

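Between the main settings and the alternatives other than leaving out 1 array, 588 of 636 values kept their direction and side of the threshold. The directions that turned belonged to effects that were not called. With quantile normalization and centred arrays, HVCN1 in HL60 minus U937 turned to -0.18 and -0.24, NCF4 in U937 to 0.24 and 0.23, RAC1 between THP-1 and U937 with DMSO to 0.12 and 0.094, the RAC1 average to 0.046 and 0.062, and RAC2 in HL60 minus U937 to -0.032 and -0.037. Centred arrays also turned RAC1 in U937 to 0.018 and RAC1 in HL60 minus THP-1 to -0.063. With a median polish RAC1 in THP-1 turned to -0.093 and NCF4 in U937 to 0.033. Without both U937 arrays numbered 2, HVCN1 in HL60 minus U937 was -0.061 and the RAC1 average 0.027. Without probe set 3944561, an alternative chosen after seeing the data like that without 3960062, NCF4 in U937 was 0.011. The causes were not tested.

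With the replicate block, 5 members were called for the average over lines and 2 for HL60 minus U937, and it changed no call of a member other than those given beside the results. That block was set within each line and so gives no test of DMSO levels between lines. The labels number arrays 1 to 3 in every line, and same-numbered arrays of different lines correlated in their deviations at -0.486 to 0.771, over 0.1 in 28 of 36 pairs, so a block shared across lines was added after seeing the data. With it 2 members were called for HL60 minus U937, NCF4 was called higher in HL60 than in THP-1 with DMSO (0.53, adjusted p = 0.0366) and no other call between DMSO levels changed. A median polish also called 5 members for the average. Quantile normalization, centred arrays, the median polish and NCF4 without 3944561 each called 2 for HL60 minus U937. With diffSplice 0 member probe sets were called for usage in HL60.

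Leaving out 1 array at a time gave, for members called, 1 to 3 in THP-1, 1 to 2 in HL60 minus THP-1, 1 to 2 in HL60 minus U937 and 1 to 3 in THP-1 minus U937 with DMSO. For usage it gave 0 to 2 in HL60 and 0 to 1 in THP-1 and U937. Directions turned within the ranges -0.18 to 0.18 for CYBA in THP-1 minus U937, -0.12 to 0.37 for CYBB between THP-1 and U937 with DMSO, -0.11 to 0.25 for HVCN1 in HL60 minus U937, -0.25 to 0.15 for NCF4 in U937, -0.047 to 0.19 for RAC1 in HL60, -0.078 to 0.085 for RAC1 in THP-1, -0.099 to 0.037 for the RAC1 average and -0.075 to 0.18 for RAC1 in HL60 minus THP-1.

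Counts over all genes moved by more than 1.5 times as follows. The block called 5648 genes in THP-1 against 3666, 5399 in U937 against 3571, 2516 in HL60 minus THP-1 against 1264, 2664 in HL60 minus U937 against 1256 and 1647 in THP-1 minus U937 against 774. Quantile normalization and centred arrays called 2317 and 2156 in HL60 minus THP-1, 1395 and 1329 in THP-1 minus U937, and 4197 and 4423 against 2692 between HL60 and THP-1 with DMSO. Without both U937 arrays numbered 2 the counts were 2075 in HL60 minus THP-1, 4044 between HL60 and THP-1 with DMSO and 7064 against 4263 between THP-1 and U937 with DMSO. The arrays of the compared lines alone gave 2049 in HL60 minus THP-1. Without U937 PMA 2 the counts were 6670 between THP-1 and U937 with DMSO, 2094 in HL60 minus THP-1 and 1186 in THP-1 minus U937, and without U937 PMA 3 1943 in HL60 minus U937.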
